A study of Rattus norvegicus with 47 samples.

Results

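Transcripts of 3 xenobiotic receptors and of the enzymes they serve were followed through rat liver under vitamin A diets and after retinoic acid (RA). The genes were the pregnane X receptor Nr1i2 (PXR), the constitutive androstane receptor Nr1i3 (CAR), the aryl hydrocarbon receptor Ahr, the electron donor Por, the heme enzyme Alas1, and the cytochrome P450 genes Cyp2b1, Cyp2b2, Cyp1a1, Cyp1a2 and Cyp3a18. They were chosen by name, and a gene was measured where the array's annotation paired a probe set with its symbol alone. This held for 8 of the 10 genes, through 10 probe sets, out of 14217 genes named on the array. Cyp2b1 and Cyp2b2 had no probe set of their own: probe set 1371076_at is annotated to both, so its values are given as a joint Cyp2b1 and Cyp2b2 signal and are not counted among the 8 genes.

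All rats were female Sprague-Dawley rats of 8 weeks, with liver RNA of 1 rat on each of 47 single-colour Affymetrix arrays, in 13 groups and 3 experiments. The diet experiment used pups of dams fed without vitamin A, kept from weaning on a purified AIN-93G diet. Its 5 deficient rats had a diet without added retinol (0 mg/kg), its 7 marginal rats 0.4 mg/kg, its 6 adequate rats 4 mg/kg and its 2 supplemented rats 100 mg/kg. The time course used vitamin A-deficient rats: 3 received vehicle (0 h), and the others roughly 100 µg of all-trans-RA, with 3 rats killed at 3 h, 3 at 6 h, 4 at 10 h and 3 at 16 h. The intravenous experiment used rats on stock diet, given vehicle and deprived of food at once, then injected into an iliac vein under isoflurane 16 h later. Of these, 2 received vehicle (0 min), and 3 each were taken 30, 60 and 90 min after roughly 25 µg of all-trans-RA bound to albumin. Sample titles call the control rats of both RA experiments untreated, whereas the treatment notes state vehicle. No vehicle rats were studied at later times, so RA and the time after dosing, anaesthesia or food removal cannot be told apart in either RA experiment.

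PXR and CAR are nuclear receptors that sense drugs, bile acids and steroids. Each pairs with the retinoid X receptor on DNA, and in liver they are best known for raising CYP3A and CYP2B enzymes. AHR is a ligand-activated factor that pairs with ARNT and is known for raising CYP1A enzymes. Microsomal P450s receive their electrons from POR, the NADPH-cytochrome P450 reductase, and carry heme, whose synthesis in liver is set by ALAS1 at its first step.

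Sequences at the annotated starts of 6 of the genes are shown because the receptors read short DNA words. The stretches are the 250 bases before the start given in RefSeq's promoter table for build GRCr8, which held 9 of the 10 genes. Cyp1a1 is named only. Capitals mark matches on either strand to GCGTG, the core of the AHR site, and to the nuclear receptor half-sites AGGTCA and AGTTCA. A match on the opposite strand appears in capitals as its reverse complement. The Por stretch lies at chr12:26635810-26636059, minus strand, the Alas1 stretch at chr8:115768643-115768892, minus strand, and the Cyp1a2 stretch at chr8:66978150-66978399, minus strand. The start in that table can lie inside the span annotated for the gene: all 250 bases of the Por stretch lie within its gene (chr12:26587674-26655612), as do the last 93 of Nr1i3, 38 of Cyp2b2 and 21 of Cyp2b1. The Cyp3a18 stretch lies at chr12:13994062-13994311, plus strand. The Cyp2b1 and Cyp2b2 stretches lie at chr1:90645869-90646118, plus strand and chr1:90722031-90722280, plus strand, and are printed together to show how alike these neighbouring genes are.
Por: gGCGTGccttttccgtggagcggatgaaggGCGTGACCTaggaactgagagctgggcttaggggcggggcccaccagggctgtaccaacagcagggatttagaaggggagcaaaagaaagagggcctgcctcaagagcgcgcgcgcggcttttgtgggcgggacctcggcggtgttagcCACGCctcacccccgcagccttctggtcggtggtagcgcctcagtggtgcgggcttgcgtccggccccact
Alas1: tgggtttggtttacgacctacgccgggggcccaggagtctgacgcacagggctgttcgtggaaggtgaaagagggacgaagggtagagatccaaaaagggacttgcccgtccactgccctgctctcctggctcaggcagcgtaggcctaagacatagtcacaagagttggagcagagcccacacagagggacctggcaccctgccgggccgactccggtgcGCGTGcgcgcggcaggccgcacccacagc
Cyp1a2: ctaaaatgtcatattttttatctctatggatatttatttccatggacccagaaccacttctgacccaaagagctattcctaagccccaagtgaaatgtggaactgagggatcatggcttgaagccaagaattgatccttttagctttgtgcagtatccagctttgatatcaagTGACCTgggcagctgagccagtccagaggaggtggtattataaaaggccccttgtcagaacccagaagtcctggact
Cyp3a18: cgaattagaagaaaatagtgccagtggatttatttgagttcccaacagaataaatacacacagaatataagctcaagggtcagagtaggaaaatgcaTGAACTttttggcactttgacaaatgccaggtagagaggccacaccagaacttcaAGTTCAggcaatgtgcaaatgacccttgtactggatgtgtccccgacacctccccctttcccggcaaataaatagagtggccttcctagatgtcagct
Cyp2b1: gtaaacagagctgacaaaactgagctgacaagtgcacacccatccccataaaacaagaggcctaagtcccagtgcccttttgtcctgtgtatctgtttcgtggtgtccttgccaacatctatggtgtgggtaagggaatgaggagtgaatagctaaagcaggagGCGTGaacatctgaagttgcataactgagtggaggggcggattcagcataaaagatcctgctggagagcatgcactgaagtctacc
Cyp2b2: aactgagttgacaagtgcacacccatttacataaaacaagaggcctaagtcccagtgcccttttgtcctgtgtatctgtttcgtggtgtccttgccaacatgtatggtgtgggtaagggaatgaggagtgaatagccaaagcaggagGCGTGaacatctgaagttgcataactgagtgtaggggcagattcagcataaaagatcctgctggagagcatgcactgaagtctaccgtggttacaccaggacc

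Por held 3 GCGTG words and 1 AGGTCA, and one GCGTG overlapped the AGGTCA on the opposite strand. Alas1, Cyp2b1 and Cyp2b2 held 1 GCGTG each. Cyp1a2 held no GCGTG in this window but 1 AGGTCA and 1 TATAAA, and Cyp3a18 held 2 AGTTCA words. Nr1i2 held 1 AGTTCA, while no match to these words was found in the stretches of Nr1i3 and Ahr. Over all 33469 stretches of this length, 25.9% held GCGTG, 14.1% AGGTCA, 12.2% AGTTCA and 12.9% TATAAA, so each word is common. The E-box CACGTG, the fifth word searched, was in 5.59% of stretches and in none of the 9. The aligned part of the Cyp2b1 and Cyp2b2 stretches was identical at 275 of 283 positions (97.2%), counting the 50 bases after the start that are not printed.

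In GRCr8 the annotated genes are Nr1i2 at chr11:75965717-76006733, Nr1i3 at chr13:86165327-86170362, Ahr at chr6:57961423-57998901, Alas1 at chr8:115755238-115768642 and Cyp3a18 at chr12:13994312-14044185. Cyp1a2 at chr8:66971261-66978149 and Cyp1a1 at chr8:66991940-66998014 are neighbours. The values are deposited log2 signals on which every array has a median of 0, and they order arrays for 1 probe set but do not set the level of one gene against another. Averaged over the 47 arrays, Cyp1a2 (probe set 1387243_at) lay at the 98.9th percentile of all probe sets, Alas1 (1367982_at) at 97.4, Cyp3a18 (1398307_at) at 95, Por (1387109_at) at 93.8 and Nr1i2 (1369270_at) at 91.3. Nr1i3 (1368797_at) lay at 65.2, Ahr (1369146_a_at) at 57.4 and Cyp1a1 (1370269_at) at 4.38. The enzymes and PXR were thus read in the bright part of the range, and CAR, AHR and Cyp1a1 in its middle or at its bottom. Cyp1a1 was at the array's lowest value on 2 arrays and passed the filter on dim signals only in the time course. Por's second probe set (1368213_at) followed the first over the 47 arrays (Pearson r = 0.843), whereas Ahr's second (1369147_at) did not follow its first (r = -0.165), and the 2 Ahr probe sets disagree.

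Array quality bears on several results. At 16 h, RA replicates 1 and 2 stood apart, with mean correlations of 0.656 and 0.678 to the other arrays of their group, where replicate 3 had 0.692 and every other array of the series at least 0.765. Control probe sets for the 3′ and 5′ ends of Gapdh, whose gap is a sign of RNA quality, differed by 0.95 on vehicle replicate 1, 0.92 on deficient replicate 5 and 1.37 on adequate replicate 5. In the diet experiment 12 arrays belonged to a first and 8 to a second run of array identifiers, with lowest signals of -5.709 to -5.3 and -4.459 to -3.322. The run was a term in the fit, and the second run held no supplemented rat. Hepatocyte markers were high in every group (group means of Alb 8.34 to 10.12), and the mean level of 8 pancreatic acinar markers was low (group means -1.16 to -0.33). Single acinar markers could lie higher, as Cpa1 did in adequate livers (mean 2.92) and Cela1 in vehicle livers of the time course (mean 2.38). Cyp26a1, the enzyme that clears RA and a check of the labels, was higher at 6 h (6.27 to 6.52) than in vehicle livers (-4.73 to -0.89). It was also higher in supplemented livers (4.28 and 5.24) than in deficient livers (-3.32 to -0.43). The check was weaker at 16 h. Of 5 RA response genes, all 5 were higher at 6 h at an adjusted p under 0.05 (limma). At 16 h this held for 2, Lrat and Cyp26b1, and 2 of the 5 had changes below 0. Cyp26a1 did not pass at 16 h, and without RA replicates 1 and 2 its change there was 6.41.

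The time course asked which transcripts respond when RA is given to rats that lack vitamin A. By a moderated F test for any difference among vehicle and the 4 RA times (limma, Benjamini-Hochberg over 28869 probe sets), Nr1i2, Por, Alas1 and Cyp1a2 changed, 4 of the 8 genes tested, against 4.79% of all probe sets. The joint Cyp2b1 and Cyp2b2 signal also passed (F = 6.57, adjusted p = 0.0233), Cyp3a18 missed the threshold narrowly (F = 5.26, adjusted p = 0.0519), and Nr1i3, Ahr and Cyp1a1 did not pass. At an unadjusted p under 0.05, 5 of the 8 passed, against 18.1% of probe sets. The times of highest mean differed: 3 h for Alas1, 6 h for Por and Nr1i2, and 10 h for Cyp3a18 and for Cyp2b1 and Cyp2b2, while Cyp1a2 was highest in vehicle livers. Without the 16 h group 2 of the 8 genes passed, Por and Alas1. After quantile normalization Por (adjusted p = 0.0108), Alas1 (0.0161) and Cyp3a18 (0.023) passed, while Nr1i2 (0.0893) and Cyp1a2 (0.0594) did not.

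**Figure D1:**
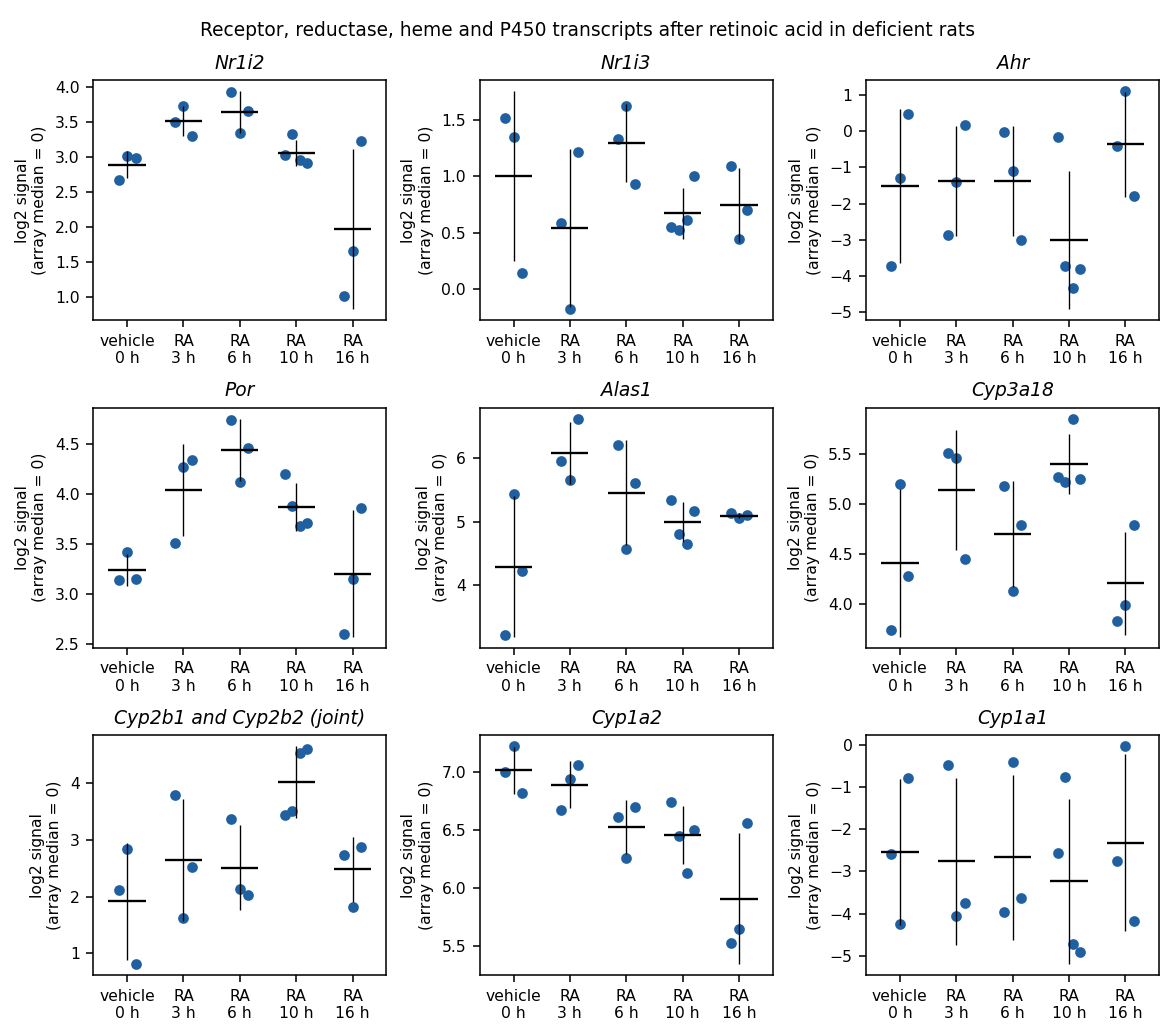
Log2 signal of each gene on every array of the time course (y axis, array median 0) against the group (x axis). Points are rats, the horizontal bar is the group mean and the vertical bar 1 SD. Alas1 is highest at 3 h, Por and Nr1i2 at 6 h and the joint Cyp2b1 and Cyp2b2 signal at 10 h, while Cyp1a2 is lowest at 16 h, where 2 of 3 rats lie below all others.

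Single times were then set against vehicle, and since all share the same 3 vehicle arrays the contrasts are not independent of each other. At 3 h, 0 of the 8 genes were called by limma (0.0762% of probe sets called), with 3 under an unadjusted p of 0.05 (3.27%). At 6 h it was 0 (0.201%), with 4 under an unadjusted 0.05 (5.11%), and at 10 h 0 (0.488%), with 3 under an unadjusted 0.05 (9.6%). At 16 h 1 of the 8 was called, Cyp1a2 (6.11%), with 3 under an unadjusted 0.05 (21.8%). The rats of the RA and vehicle groups did not overlap for 3 genes at 3 h (Nr1i2, Por and Alas1, against 9.68% of probe sets), 3 at 6 h (Nr1i2, Por and Cyp1a2, 11%), 3 at 10 h (Por, Cyp3a18 and Cyp1a2, 9.92%) and 1 at 16 h (Cyp1a2, 17.8%). The median change of the 8 genes was 0.38 at 3 h, 0.29 at 6 h, -0.08 at 10 h and -0.12 at 16 h, beside medians of 0.03, -0.09, -0.19 and -0.39 over all probe sets. At 16 h the calls leaned one way, with 1701 lower and 64 higher, against 212 lower and 111 higher after quantile normalization, where the median over all probe sets was -0.06. Without RA replicates 1 and 2 there were 113 lower and 14 higher.

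**Figure D2:**
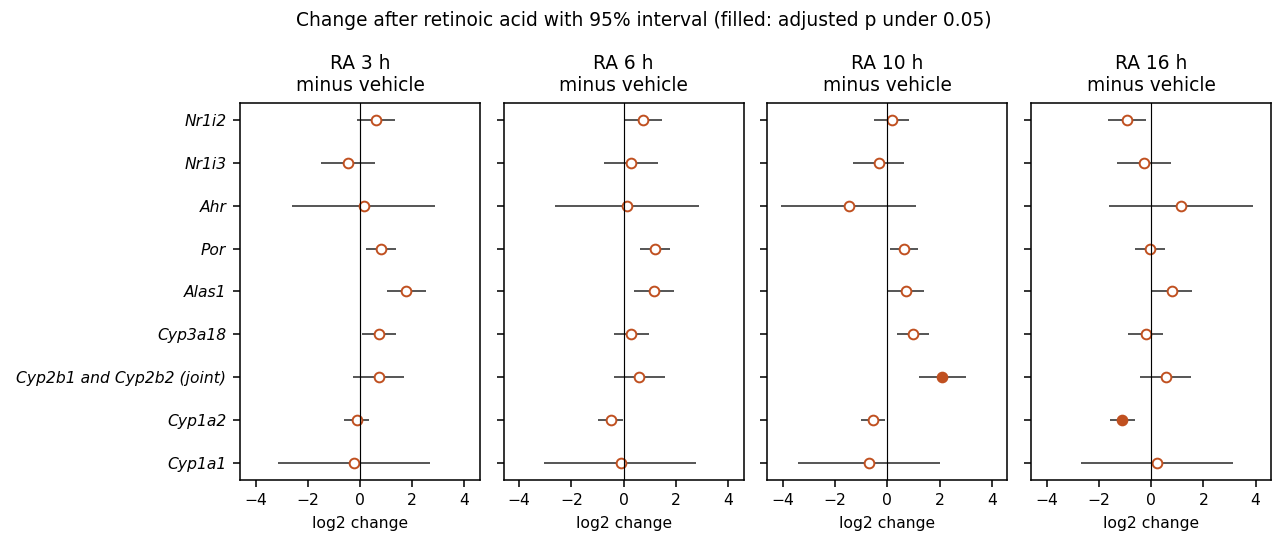
Log2 change against vehicle for each gene (rows) at 3, 6, 10 and 16 h of RA (panels), with the 95% interval as a line. Filled points have an adjusted p under 0.05, which holds for the joint Cyp2b1 and Cyp2b2 signal at 10 h (2.11) and for Cyp1a2 at 16 h (-1.11), while the intervals of Ahr and Cyp1a1 span 0 at each time.

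Nr1i2, which encodes PXR, had signals of 2.67, 3.01 and 2.99 in vehicle livers, 3.49, 3.73 and 3.30 at 3 h, 3.93, 3.34 and 3.65 at 6 h, 3.03, 3.33, 2.95 and 2.92 at 10 h, and 1.02, 1.66 and 3.23 at 16 h. Every rat at 3 and 6 h lay above every vehicle rat, the 10 h rats mixed with vehicle, and 2 of the 3 rats at 16 h lay below all others. The gene passed the F test (F = 7.09, adjusted p = 0.0174), but no single time did: the change was 0.62 ± 0.35 (SE) at 3 h (adjusted p = 1), 0.75 ± 0.35 at 6 h (adjusted p = 0.932) and -0.92 ± 0.35 at 16 h (adjusted p = 0.113). The low 16 h values are those of RA replicates 1 and 2. Without these arrays, which leaves 1 array at 16 h, the 16 h change was 0.34. Without the whole 16 h group Nr1i2 did not pass the F test (adjusted p = 0.135).

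Nr1i3, which encodes CAR, ranged from 0.14 to 1.52 in vehicle livers, -0.18 to 1.22 at 3 h, 0.93 to 1.62 at 6 h, 0.52 to 1.00 at 10 h and 0.44 to 1.09 at 16 h. The groups overlapped throughout (F = 0.72, adjusted p = 0.814). The 95% interval of its change was -1.49 to 0.57 at 3 h and -0.75 to 1.32 at 6 h, so a moderate change was not detectable with this spread.

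Ahr gave -3.73, -1.28 and 0.48 in vehicle livers, -2.87, -1.39 and 0.16 at 3 h, -0.03, -1.10 and -3.01 at 6 h, -0.17, -3.71, -4.33 and -3.80 at 10 h, and -0.41, 1.10 and -1.78 at 16 h. Rats of one group spread over more than 2 log2 units in each of the 5 groups, and no difference passed (F = 1.18, adjusted p = 0.665). In the diet and intravenous experiments the same probe set kept within -0.32 to 1.74 and 0.01 to 1.61, and the experiments used other rats and were not tested against each other. The second Ahr probe set had its lowest mean at 16 h (-2.39 ± 0.98, SD, n = 3) against -0.70 ± 0.50 (SD, n = 3) in vehicle livers, and its change of -1.70 ± 1.04 did not pass (adjusted p = 0.363).

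Por, the reductase shared by the microsomal P450s, had signals of 3.14, 3.42 and 3.15 in vehicle livers, 3.51, 4.27 and 4.34 at 3 h, 4.74, 4.12 and 4.46 at 6 h, 4.20, 3.88, 3.68 and 3.71 at 10 h, and 2.60, 3.15 and 3.86 at 16 h. All rats at 3, 6 and 10 h lay above all vehicle rats, and the 16 h rats fell on both sides. Por changed over the time course (F = 7.26, adjusted p = 0.016), with a change at 6 h of 1.2 ± 0.28, 2.3-fold, that missed the threshold (adjusted p = 0.0775) and passed after quantile normalization (1.32, adjusted p = 0.00301), as did the change at 10 h (0.89, adjusted p = 0.0352, against 0.63 and 0.42 as deposited). The F test held in 15 of 16 analyses that left out 1 array. It was lost without RA 6 h replicate 1 (adjusted p = 0.0627), the highest Por value, on an array with a Gapdh difference of 0.78. The 6 h change was then 1.05 (adjusted p = 0.477). Por's second probe set gave 1.47 ± 0.33 at 6 h, 2.77-fold, and was called there (adjusted p = 0.0486). Its signals were 3.56, 3.00 and 3.50 at 6 h against 1.56, 2.66 and 1.43 in vehicle livers.

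Alas1, the first enzyme of heme synthesis, had 3.22, 5.43 and 4.22 in vehicle livers, 5.95, 5.66 and 6.62 at 3 h, 6.20, 4.56 and 5.60 at 6 h, 5.34, 4.81, 4.65 and 5.16 at 10 h, and 5.13, 5.05 and 5.10 at 16 h. Only the 3 h group did not overlap vehicle, whose own rats spanned more than the later groups. Alas1 changed over the time course (F = 6.28, adjusted p = 0.0279). Its change at 3 h was 1.78 ± 0.37, 3.44-fold (95% interval 1.03 to 2.54), with an adjusted p of 0.0507, or 0.0193 after quantile normalization (1.72). At 16 h its change was 0.80 (adjusted p = 0.198), and 1.41 (adjusted p = 0.0283) after quantile normalization. Vehicle replicate 1, the lowest of the vehicle rats and the one with the raised Gapdh difference, weighs on the 3 h value: that change was 1.25 (adjusted p = 0.737) without it and 2.35 (adjusted p = 0.000347) without vehicle replicate 2.

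Cyp3a18, a P450 of the PXR-responsive CYP3A family, had 3.74, 5.20 and 4.28 in vehicle livers, 5.51, 5.46 and 4.45 at 3 h, 5.18, 4.13 and 4.79 at 6 h, 5.27, 5.22, 5.85 and 5.25 at 10 h, and 3.83, 3.99 and 4.79 at 16 h. The 4 rats at 10 h all lay above the 3 vehicle rats, narrowly for vehicle replicate 2, and the other times overlapped vehicle. The change at 10 h was 0.99 ± 0.30, 1.99-fold, and did not pass (adjusted p = 0.172), though it did after quantile normalization (1.26, adjusted p = 0.00555).

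The joint Cyp2b1 and Cyp2b2 signal, from the P450s by which CAR activation is usually read in rat liver, was 2.12, 2.84 and 0.80 in vehicle livers, 3.79, 1.63 and 2.52 at 3 h, 3.37, 2.14 and 2.03 at 6 h, 3.45, 3.51, 4.53 and 4.61 at 10 h, and 2.74, 1.82 and 2.88 at 16 h. All 4 rats at 10 h exceeded all vehicle rats, and every other time overlapped vehicle. The 10 h change was 2.11 ± 0.45, 4.31-fold (95% interval 1.2 to 3.02, adjusted p = 0.0206). Leaving out vehicle replicate 3, the lowest rat, reduced it to 1.55 (adjusted p = 0.364), and without an intensity trend in the variance its adjusted p was 0.453. Which of the genes (Cyp2b1 at chr1:90646098-90669762, Cyp2b2 at chr1:90722243-90736272, GRCr8) gave the signal cannot be told from this probe set.

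Cyp1a2, a liver P450 known as an AHR target that is also expressed without inducers, had 7.00, 7.22 and 6.82 in vehicle livers, 6.67, 6.94 and 7.06 at 3 h, 6.61, 6.26 and 6.70 at 6 h, 6.74, 6.45, 6.13 and 6.50 at 10 h, and 5.52, 5.64 and 6.56 at 16 h. The rats at 6, 10 and 16 h all lay below the lowest vehicle rat. Cyp1a2 fell at 16 h by 1.11 ± 0.23 on the log2 scale, 2.16-fold lower than vehicle (95% interval -1.59 to -0.63, adjusted p = 0.00742), and the values were -0.49 ± 0.23 at 6 h (adjusted p = 0.959) and -0.56 ± 0.22 at 10 h (adjusted p = 0.369). RA replicates 1 and 2 gave the low 16 h values. Without both, which leaves 1 array at 16 h, the change was -0.46, and a fit with 1 array cannot decide the call. The call held in 14 of 16 analyses that left out 1 array. It was lost without RA 16 h replicate 1 (change -0.92) and without vehicle replicate 2 (adjusted p = 0.0566). Without an intensity trend in the variance the adjusted p was 0.165, and after quantile normalization the change was -0.67 (adjusted p = 0.018). The mean level of pericentral markers, from the zone where Cyp1a2 is mostly made, was 3.24 to 3.50 at 16 h over 9 of 10 markers measured, against 3.76 to 4.14 in vehicle livers. Their median change of -0.39 equalled that of all probe sets, 6 of the 9 had changes below 0 and 1 was called, Aldh1a1. Cyp2e1, a P450 of the same zone, was 9.07 to 9.23 at 16 h against 8.35 to 8.88 in vehicle livers (0.51 ± 0.20, adjusted p = 0.131). Oat (0.04 ± 0.31) and Slco1b2 (0.28 ± 0.27) had changes above 0. With quantile normalization the pericentral median was 0.06, and Aldh1a1 was not called (adjusted p = 0.275). Cyp2e1 (0.37 ± 0.09, adjusted p = 0.0374) and Slco1b2 (0.72 ± 0.17, adjusted p = 0.0349) were then called higher. Kupffer, stellate and sinusoidal endothelial markers had median changes of -0.73, -1.18 and -0.83 at 16 h, against -0.39 over all probe sets, with 2 of 7, 2 of 10 and 1 of 7 falling and 1 stellate marker rising, where 6.11% of all probe sets were called. After quantile normalization the medians were -0.21, -0.57 and -0.36, against -0.06, and 1 of these 24 markers was called, the stellate marker Col3a1. The part of these markers in the Cyp1a2 result was not tested. In whole liver RNA, fewer cells of a zone and less RNA per cell cannot be told apart.

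Cyp1a1, the inducible AHR target, stayed near the bottom of the range, between -4.92 and -0.04 over the 16 arrays, and its groups overlapped (F = 0.136, adjusted p = 0.986). Its 95% interval was -2.69 to 3.14 at 16 h, so large changes in either direction were not detectable.

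Other genes of these pathways were read from lists drawn up by function. Of 29 targets of CAR and PXR, 21 were measured and 19 tested in the time course. At 10 h the canalicular export pump gene Abcc2 fell by 1.17 ± 0.22 (adjusted p = 0.00802) and no other list gene was called. At 16 h Cyp2c7 rose (1.41 ± 0.28, adjusted p = 0.00561), and 4 fell, among them the glutathione transferase Gstm1 (-1.28 ± 0.23, adjusted p = 0.00276), Cyp2a1 (-1.10 ± 0.29, adjusted p = 0.0248) and Aldh1a1 (-1.35 ± 0.32, adjusted p = 0.0139). The list's median change was 0.18 at 3 h and -0.56 at 16 h, against 0.03 and -0.39 over all probe sets, and at 16 h 6.11% of all probe sets were called. These calls at 16 h, and those of the other pathway lists given next, hold only with RA replicates 1 and 2: without them, which leaves 1 array at 16 h, all 13 were lost (adjusted p = 0.0636 to 0.84). After quantile normalization Cyp2c7, Gstm1 and the clock gene Nfil3 kept their calls. The CAR and PXR list then had 4 genes called higher and 1 lower, so its direction at 16 h depends on the scaling. Newly called higher were Cyp3a9 (1.64 ± 0.34, adjusted p = 0.0145), Slco1a4 (1.02 ± 0.18, adjusted p = 0.00389) and Cyp3a23-3a1 (0.74 ± 0.19, adjusted p = 0.0483). The list's median change was then -0.05, against -0.06 over all probe sets. Of 5 AHR targets tested, 0 were called by limma at any of the 4 times, with 1, 2, 1 and 0 under an unadjusted p of 0.05 at 3, 6, 10 and 16 h.

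Among 17 tested partners and coregulators of the receptors, Nr0b2 (SHP, a nuclear receptor without a DNA-binding domain that represses other receptors, PXR and CAR among them) rose at 3 h (2.68 ± 0.42, adjusted p = 0.0024) and 6 h (2.77 ± 0.42, adjusted p = 0.000845). It averaged 4.95 at 3 h and 5.04 at 6 h against 2.27 in vehicle livers, and no other gene of that list was called at these times. At 16 h the glucocorticoid receptor gene Nr3c1 (-0.97 ± 0.27, adjusted p = 0.0327) and the corepressor gene Ncor1 (-0.93 ± 0.28, adjusted p = 0.0435) fell. Of 12 other genes of heme synthesis and breakdown, 0 were called at 3, 6 or 10 h by limma, with 0, 1 and 2 under an unadjusted p of 0.05, and Cpox fell at 16 h (-0.98 ± 0.25, adjusted p = 0.0216). Of the 6 other genes of P450 electron transfer, only Pgrmc2, a heme-binding partner of P450s, was called, at 16 h (-1.11 ± 0.25, adjusted p = 0.00977). Beside the changes of Alas1 and Por, the other genes of these lists had median changes of -0.06 and 0.16 at 3 h and -0.07 and -0.14 at 6 h.

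Clock transcripts, which mark the time of day and are known to drive Alas1, Por and Nr1i3 in rodent liver, differed between the groups as well. At 16 h 4 of 16 clock genes fell, among them Nfil3 (-2.14 ± 0.45, adjusted p = 0.0071) and Bmal1 (-2.03 ± 0.56, adjusted p = 0.0311), and 0 were called by limma at 3, 6 or 10 h, with 4, 3 and 5 under an unadjusted p of 0.05. With quantile normalization only Nfil3 of these 4 kept its call at 16 h. Nr1d2 (1.59 ± 0.38, adjusted p = 0.0351) and Hlf (1.22 ± 0.28, adjusted p = 0.0274) were then called higher. The part of these differences in the Alas1, Por and Cyp1a2 results was not tested.

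The diet experiment asked how the same transcripts depend on long-term vitamin A intake. Alas1 changed among the 4 diets (F = 9.37, adjusted p = 0.0219), the only 1 of the 7 genes tested, against 0.91% of all probe sets. It was also the only 1 under an unadjusted p of 0.05 (9.6% of probe sets). After quantile normalization Alas1 did not pass this F test (adjusted p = 0.0709), whereas Cyp1a2 did (adjusted p = 0.0387). In deficient against adequate livers 1 of the 7 genes was called, again Alas1 (1.08% of probe sets), with 2 under an unadjusted 0.05 (12.7%). In marginal against adequate livers 0 were called by limma (0%), with 0 under an unadjusted 0.05 (3.32%). In supplemented against adequate livers it was 0 (0.0109%), with 0 under an unadjusted 0.05 (3.63%), and in supplemented against deficient livers 0 (0.42%), with 1 under an unadjusted 0.05 (8.62%).

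Alas1 had signals of 3.91, 4.23, 5.15, 4.09 and 3.61 in deficient livers, from 4.54 to 5.70 with a median of 4.93 in marginal livers, from 4.13 to 5.47 with a median of 4.90 in adequate livers, and 5.07 and 4.81 in supplemented livers. Of the 5 deficient rats, 3 lay below every adequate rat. Within each identifier run all deficient rats lay below all adequate rats. The first run held 2 deficient and 4 adequate rats (means 3.85 and 4.63), the second 3 and 2 (means 4.43 and 5.44). The share of all probe sets that separate in this way was not computed, and groups this small can separate by chance. Alas1 fell in deficient livers by 0.86 ± 0.20 on the log2 scale, 1.82-fold lower than adequate (95% interval -1.28 to -0.45, adjusted p = 0.0249), with -0.78 ± 0.28 among first-run rats and -1.01 ± 0.30 among second-run rats.

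The call depended on single choices. It was lost in 8 of 9 alternative analyses, and over all 9 the adjusted p lay between 0.0287 and 0.559 and the change between -1.01 and -0.49. It held in 14 of 20 analyses that left out 1 array, with adjusted p of 0.124 without deficient replicate 5. Without deficient replicates 1, 2 and 5 and adequate replicate 5, the 4 diet arrays with the lowest mean correlation to the other arrays of the experiment (0.783 to 0.819), the change was -0.49 (adjusted p = 0.559). Only deficient replicates 3 and 4 are left in that last fit. The direction was the same in all of these analyses. Supplemented livers exceeded deficient livers by 1.10 ± 0.29, which did not pass (adjusted p = 0.0985).

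**Figure D3:**
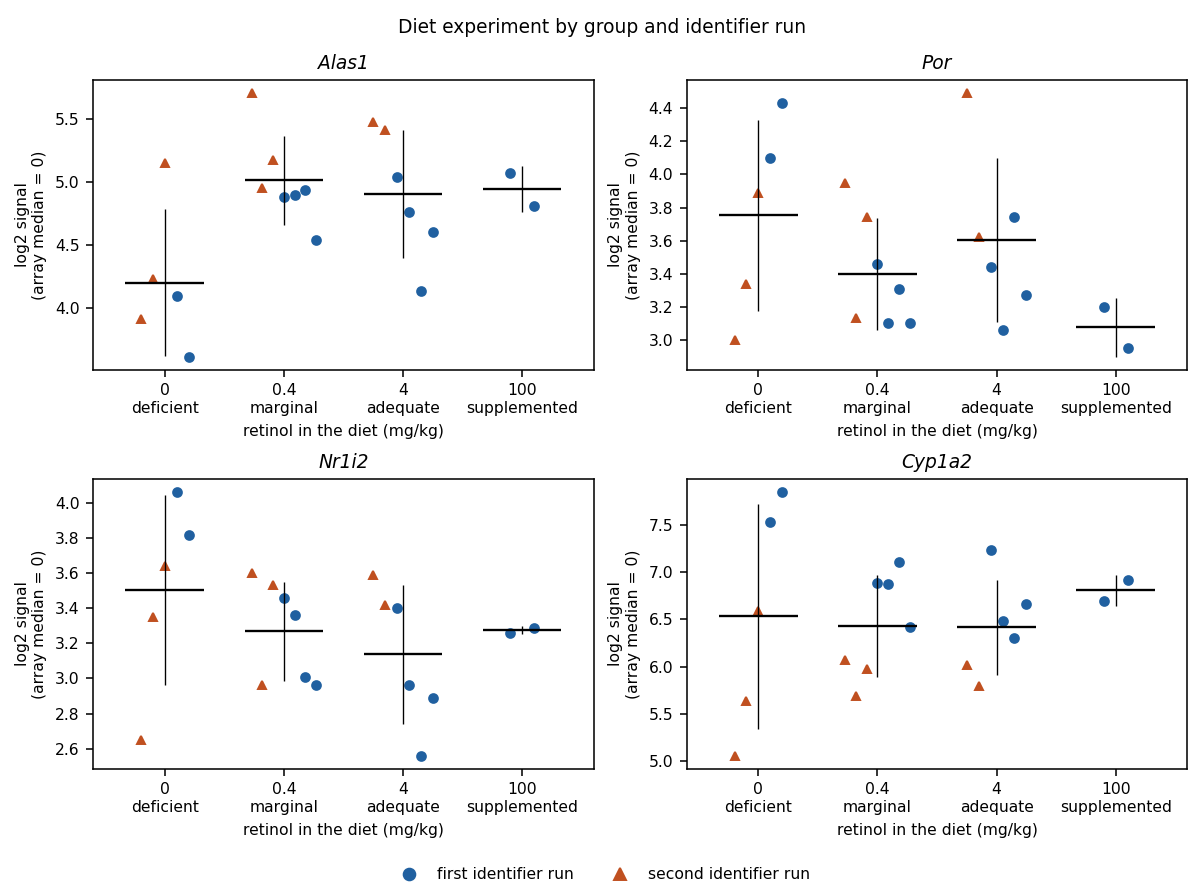
Log2 signal of Alas1, Por, Nr1i2 and Cyp1a2 on every array of the diet experiment (y axes, array median 0) against retinol in the diet (x axes). Circles and triangles are arrays of the first and second identifier run, bars are the group mean and 1 SD; deficient rats are low for Alas1 in both runs, while for Por, Nr1i2 and Cyp1a2 the deficient rats of the first run are high.

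Por, Nr1i2 and Cyp1a2 had changes of opposite sign in the identifier runs, as did Nr1i3 with wide errors (-1.18 ± 1.03 and 0.43 ± 1.08). Among first-run arrays, deficient replicate 5 and adequate replicate 5 had raised Gapdh differences (0.92 and 1.37), whose part was not tested. Por was 4.10 and 4.43 in deficient livers of the first run against 3.06 to 3.74 in adequate livers, and 3.00, 3.34 and 3.89 in deficient livers of the second run against 4.49 and 3.62 in adequate livers of that run. The Por change was thus 0.89 ± 0.28 among first-run rats and -0.64 ± 0.29 among second-run rats, a difference of -1.53 ± 0.40 that did not pass over all probe sets (adjusted p = 0.188). Por's second probe set gave 1.39 ± 0.31 and -0.35 ± 0.33 (adjusted p of the difference 0.182). Nr1i2 gave 0.99 ± 0.27 and -0.29 ± 0.28 (adjusted p = 0.273), and Cyp1a2 1.01 ± 0.31 and -0.14 ± 0.33 (adjusted p = 0.35). The difference between runs was called for 0 of the 7 genes by limma, against 0.0544% of all probe sets, with 3 under an unadjusted p of 0.05, against 11.5%.

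Over both runs the deficient change was 0.12 ± 0.24 for Por (95% interval -0.37 to 0.61), 0.36 ± 0.22 for Nr1i2 (-0.09 to 0.81) and 0.42 ± 0.25 for Cyp1a2 (-0.09 to 0.93). None of these passed, and the upper ends of the intervals lie well above 0. After quantile normalization Cyp1a2 was called higher in deficient livers (0.71 ± 0.15, adjusted p = 0.011), so its call depends on the scaling. Nr1i3 averaged -0.19 ± 1.91 (SD, n = 5) in deficient livers and 0.09 ± 0.62 (SD, n = 6) in adequate livers, where a single deficient rat at -3.48 made most of the spread. Cyp3a18 was higher by 0.59 ± 0.27 in deficient livers (adjusted p = 0.344) and Ahr by 0.57 ± 0.33 (adjusted p = 0.483).

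The joint Cyp2b1 and Cyp2b2 signal was 0.88, 1.77, 0.99, 1.90 and 1.37 in deficient livers, 1.76 to 2.83 (median 2.13) in adequate livers and 2.17 and 2.81 in supplemented livers. The 2 supplemented rats lay above all deficient rats, and 3 of the 5 deficient rats lay below all adequate rats. How many of all probe sets separate supplemented from deficient rats was not computed. Neither the deficient change of -0.73 ± 0.34 (adjusted p = 0.353) nor the supplemented minus deficient change of 0.99 ± 0.48 (adjusted p = 0.578) passed. Cyp1a1 ranged from -4.82 to -0.38 over the 20 diet arrays and was too dim to be tested.

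Among the other genes, 2 of 20 tested CAR and PXR targets fell in deficient livers, Cyp3a9 (-3.35 ± 0.25, adjusted p = 1.84e-10) and Cyp2c7 (-1.38 ± 0.26, adjusted p = 0.00293), and 0 rose. After quantile normalization both kept their calls, and Cyp2b3 was also called lower (-0.50 ± 0.11, adjusted p = 0.0107). Ugt2b1 (1.10 ± 0.20, adjusted p = 0.00283) and Gstm1 (0.78 ± 0.12, adjusted p = 0.000246) were then called higher, so the absence of rises depends on the scaling. Cyp3a9 averaged 1.45 in deficient livers, 4.94 in adequate livers and 6.22 in supplemented livers, beside 3.74, 3.41 and 3.94 in the same groups for its family member Cyp3a18. Of 5 AHR targets tested, the quinone reductase gene Nqo1 fell in deficient livers (-1.33 ± 0.25, adjusted p = 0.00245) and was 2.05 ± 0.36 higher in supplemented than in deficient livers (adjusted p = 0.00254). Of the 12 other heme genes and 6 other electron transfer genes, 0 were called by limma in deficient livers, with 2 and 2 under an unadjusted p of 0.05, where 10 of the 12 and 5 of the 6 had changes below 0. Of all probe sets 58.5% did, with a median change of -0.11, and the calls were 277 lower and 22 higher, against 219 lower and 119 higher after quantile normalization. Without deficient replicates 1, 2 and 5 and adequate replicate 5, 6 of the 12 and 2 of the 6 had changes below 0, against 44.8% of all probe sets. Without these arrays Cyp3a9 kept its call (-2.65 ± 0.25, adjusted p = 1.35e-06), whereas Cyp2c7 (-0.82 ± 0.24, adjusted p = 0.242) and Nqo1 (-0.87 ± 0.30, adjusted p = 0.394) did not. Only deficient replicates 3 and 4 are then left in that group. With all arrays and quantile normalization Nqo1 kept its call (-1.13 ± 0.20, adjusted p = 0.00161). Pericentral markers, which share a liver zone with several of these P450s, held 2 that fell in deficient livers, Oat (-2.22 ± 0.27, adjusted p = 5.19e-06) and Slco1b2 (-0.96 ± 0.24, adjusted p = 0.0386). The list's mean level was 2.81 to 4.24 in deficient livers and 3.45 to 4.28 in adequate livers, and without the same 4 arrays Oat kept its call and Slco1b2 did not (adjusted p = 0.00145 and 0.589). Of 16 clock genes 1 fell in deficient livers, Bhlhe40 (-1.01 ± 0.25, adjusted p = 0.0328, or 0.261 without those arrays), and 14 of the 16 had changes below 0. Of 10 stellate markers 2 fell, Lrat (-2.89 ± 0.39, adjusted p = 2.72e-05), which encodes the enzyme that esterifies retinol for storage, and Lum (-3.26 ± 0.74, adjusted p = 0.0188). Of 7 acinar markers 1 fell, Cpa1 (-2.83 ± 0.48, adjusted p = 0.000809). Without the same 4 arrays Lrat and Cpa1 kept their calls, and Lum did not (adjusted p = 0.292). The median changes of stellate, acinar, Kupffer and sinusoidal markers were -0.24, -0.20, -0.22 and -0.37. Without the same 4 arrays these medians were 0.14, 0.27, 0.07 and 0.20, against 0.06 over all probe sets. After quantile normalization they were -0.17, -0.31, 0.04 and -0.15, against -0.02, so their direction depends on arrays and scaling. The part of these lists in the Alas1 result was not tested.

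The intravenous experiment asked what happens within 90 min of a dose in rats on stock diet. By the F test over vehicle and the 3 RA times 0 of the 7 genes tested passed (limma, 0.549% of all probe sets), with 3 under an unadjusted p of 0.05 (10.8%). By single time 0 were called at 30 min (0.0879%), 60 min (0.387%) and 90 min (0.505%). At an unadjusted 0.05 it was 0 at 30 min (8.94%), 2 at 60 min (10.1%) and 1 at 90 min (10.7%). With 2 vehicle rats, groups without overlap were common, at 27.5%, 28% and 28.9% of probe sets at 30, 60 and 90 min. Por came nearest.

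Por had 4.38 and 4.31 in vehicle livers, 4.85, 4.35 and 4.80 at 30 min, 4.5, 4.84 and 4.79 at 60 min, and 4.98, 5.09 and 5.21 at 90 min. Every rat at 60 and 90 min lay above both vehicle rats, and the 90 min rats lay above all other rats. The change was 0.32 ± 0.16 at 30 min, 0.36 ± 0.16 at 60 min and 0.75 ± 0.16 at 90 min, where it was 1.68-fold (95% interval 0.41 to 1.09, adjusted p = 0.058). After quantile normalization it was 0.91 (adjusted p = 0.0182). The second probe set gave 0.70 ± 0.24, 0.92 ± 0.24 and 0.89 ± 0.24 at the 3 times, with all 9 RA rats (3.24 to 4.07) above the vehicle rats (3.11 and 2.69), and adjusted p of 0.388, 0.146 and 0.159.

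**Figure D4:**
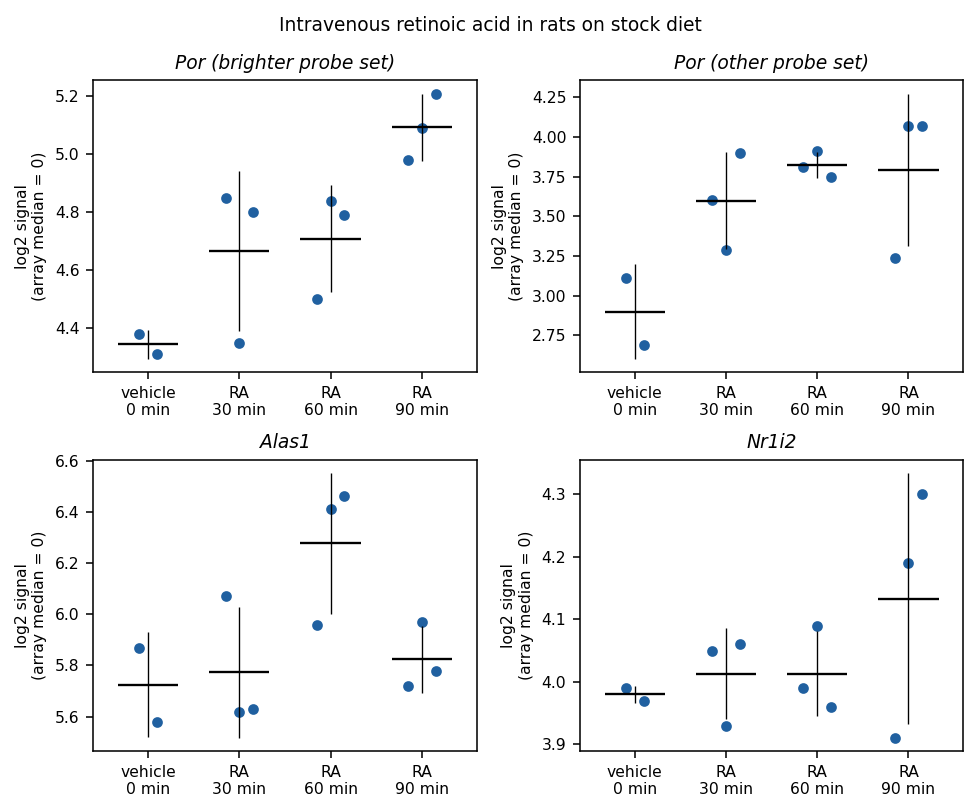
Log2 signal (y axes, array median 0) of both Por probe sets, Alas1 and Nr1i2 on every array of the intravenous experiment against the group (x axes), with bars for the group mean and 1 SD. The 3 Por values at 90 min, 4.98 to 5.21, lie above all others of that probe set, Alas1 is highest at 60 min, and Nr1i2 stays between 3.91 and 4.30.

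Alas1 had 5.87 and 5.58 in vehicle livers, 6.07, 5.62 and 5.63 at 30 min, 5.96, 6.41 and 6.46 at 60 min, and 5.72, 5.97 and 5.78 at 90 min. The 60 min rats lay above both vehicle rats, with a change of 0.56 ± 0.18 that did not pass (adjusted p = 0.272), and the 30 and 90 min rats overlapped vehicle. Nr1i2 kept within 3.91 to 4.30 over all 11 arrays, and its change at 90 min was 0.16 ± 0.13 (95% interval -0.13 to 0.44).

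Cyp1a2 had 5.62 and 6.10 in vehicle livers and 5.58 to 6.32 over the 9 RA rats, with 95% intervals of -0.50 to 0.38, -0.21 to 0.67 and -0.48 to 0.40 at 30, 60 and 90 min. Cyp3a18 was 5.29, 5.10 and 4.56 at 90 min against 3.74 and 5.19 in vehicle livers (0.52 ± 0.33, adjusted p = 0.622). The joint Cyp2b1 and Cyp2b2 signal ranged from 1.72 to 3.74 after RA and was 2.76 and 3.87 in vehicle livers. At 60 min the difference from vehicle was -0.36 ± 0.38 for Nr1i3 (adjusted p = 0.806) and -0.44 ± 0.39 for Ahr (adjusted p = 0.754). None of these differences passed the test, although the Nr1i3 rats at 60 min all lay below both vehicle rats.

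Nr0b2 rose after intravenous RA as well, by 2.35 ± 0.33 at 60 min (adjusted p = 0.00624) and 1.96 ± 0.33 at 90 min (adjusted p = 0.0141), with means of 4.15 and 3.75 against 1.80 in vehicle livers. Among 18 tested CAR and PXR targets, Gadd45b, a stress-responsive coactivator of CAR in mouse liver, rose at 30 min (2.02 ± 0.28, adjusted p = 0.008) and Gstm1 fell at 60 min (-0.65 ± 0.12, adjusted p = 0.0375). Cyb5b, the mitochondrial cytochrome b5, fell at 90 min (-0.87 ± 0.14, adjusted p = 0.0112). Clock genes moved in these hours too: at 60 min 4 of 15 tested rose, among them Per1 (1.63 ± 0.23, adjusted p = 0.00719), Bhlhe40 (1.90 ± 0.27, adjusted p = 0.00776) and Dbp (2.99 ± 0.53, adjusted p = 0.0233), and 2 fell. Their part in the Por and Alas1 values was not tested.

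Across the 13 groups, the highest mean of Alas1 was 6.28, at 60 min after intravenous RA, and its lowest 4.20, in deficient livers. For Por the highest was 5.09, at 90 min, and the lowest 3.08, in supplemented livers. Nr1i2 was highest at 90 min after intravenous RA (4.14) and lowest at 16 h of the time course (1.97), and Cyp3a18 highest at 10 h (5.40) and lowest in adequate livers (3.41). Cyp1a2 had its highest mean in the vehicle livers of the time course (7.01) and its lowest at 30 min after intravenous RA (5.8), and the joint Cyp2b1 and Cyp2b2 signal was highest at 10 h (4.03) and lowest in deficient livers (1.38). Each gene's order holds 12 neighbouring pairs of groups. Rats of the 2 groups did not overlap in 1 pair for Nr1i2, Por and Ahr. For Nr1i3, Alas1, Cyp1a1, Cyp1a2 and Cyp3a18 it was 0 pairs. The share over all probe sets was not computed for such orders, so these counts describe the order only. The groups came from experiments with other diets, doses and routes.

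Likeness between genes was described over the 13 group means, each centred on the mean of its own experiment, with no test because groups of an experiment share controls and handling. Nr1i2 ran most alike with Por (Pearson r = 0.757) and Cyp1a2 (r = 0.6) among the genes studied, and Alas1 had r = 0.374 with Por. Among 11651 genes searched, those most like Nr1i2 were Bcl2l1 (r = 0.98), Mon2 (r = 0.976) and Arhgef2 (r = 0.956), those most like Alas1 were Lbhd2 (r = 0.956), Angptl8 (r = 0.945) and Cmtm7 (r = 0.911), and Mmp8 (r = 0.89) and Ereg (r = 0.874) led for Por. For Cyp1a2 they were Dennd5a (r = 0.959), Zc3h8 (r = 0.956) and Sars1 (r = 0.954). With 13 points and so many genes searched, such values are a description only, and the low 16 h mean is among the points for Nr1i2.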

How the data were processed

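Liver RNA of 47 rats was hybridised to single-colour Affymetrix arrays. The deposited table holds log2 signals, made by the authors with GCOS (version not given), per the submitters' processing notes. Every array has a median of 0 and a floor shared by its lowest probe sets, from -6.125 to -3.322, with 5 to 3172 probe sets at it, so the number of arrays and the floor limit the precision. Of 31042 probe sets that are not controls, 20826 have 1 symbol, 436 several and 9780 none in the platform annotation.

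Of a gene's single-symbol probe sets the one with the highest mean represents it. A filter on dim signals kept, for testing within an experiment, what exceeded an array's 40th percentile on 2 or more arrays. This left 27595 in the diet experiment, 28869 in the time course and 22763 in the intravenous experiment, with 7, 8 and 7 of the 8 genes. limma 3.58.1 in R 4.3.3 was fitted per experiment (lmFit, then eBayes with an intensity trend), with the identifier run as a covariate for diet, and p-values were Benjamini-Hochberg adjusted over all probe sets tested, with a threshold of 0.05. No logarithm was taken. All genes studied are described, up to 4 called genes per list and comparison are named by smallest adjusted p, and up to 3 genes per studied gene by likeness. The genes and lists were chosen with earlier results of these data known. The code was tested on simulated data. Alternatives were quantile normalization, no filter, no trend, a replicate block, other treatments of the run, the other probe set and leaving out arrays. Leaving out the arrays that stand apart, or the 16 h group, and repeating list counts under alternatives, was chosen after seeing the data. Same-numbered arrays did not deviate together (0 of 22, 0 of 30 and 0 of 15 pairs in the 3 experiments had a correlation over 0.1).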

Additional observations from a re-analysis of the deposited data

Results flagged for a closer look

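A single array stood far from the rest of its group in 4 of 36 gene and group combinations tested, where chance gives about 1 in 20. Nr1i3 was -3.48 in deficient replicate 5, with the nearest deficient rat at 0.10, and -3.74 in marginal replicate 7, with the nearest marginal rat at -0.54. Cyp3a18 was 5.85 in RA 10 h replicate 3, with the nearest rat of that time at 5.27. Ahr was -0.17 in RA 10 h replicate 1, with the nearest rat of that time at -3.71. Deficient replicate 5 is also an array with a raised Gapdh gap (0.92), and the part of that gap was not tested.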

How the results depend on the processing

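Counts of probe sets called moved with the settings, and the causes were not tested. Without an intensity trend in the variance, deficient against adequate gave 64 (299 in the fit described), supplemented against deficient 20 (116), any diet 51 (251), RA at 3, 6, 10 and 16 h 0, 5, 2 and 40 (22, 58, 141 and 1765), any RA time 41 (1384), intravenous RA at 30, 60 and 90 min 1, 2 and 28 (20, 88 and 115) and any intravenous time 17 (125), with 0 of the genes studied passing the diet or time course F test. After quantile normalization RA at 3, 6, 10 and 16 h gave 34, 141, 290 and 323 and any RA time 611. With the replicate block, supplemented against adequate gave 0 (3), supplemented against deficient 15, RA at 10 h 72, intravenous RA at 60 min 51, and 0 genes studied passed the diet F test. The numbers do not pair the rats. Under the block the joint Cyp2b1 and Cyp2b2 change at 10 h was 1.91 (adjusted p = 0.0753 by limma). Without the run covariate deficient against adequate gave 167 and any diet 147, and 0 genes studied passed the diet F test there or with the run as a random block. The first run alone gave 61 for deficient against adequate, and the second alone 1 for marginal against adequate (0). Without the arrays that stand apart (deficient replicates 1, 2 and 5 and adequate replicate 5 for diet, RA 16 h replicates 1 and 2 for the time course), deficient against adequate gave 84, supplemented against deficient 58, any diet 61 with 0 genes studied, RA at 3, 6, 10 and 16 h 46, 135, 452 and 127, and any RA time 616 with 2 genes studied (4), and Nr1i2 at 16 h turned to 0.34. Without the 16 h group any RA time gave 569 with 2 genes studied.

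Leaving out 1 array at a time gave 156 to 1489 for deficient, 3 to 14 for supplemented, both against adequate, 43 to 429 for supplemented against deficient, 120 to 939 for any diet with 0 to 1 genes studied, 4 to 40, 25 to 86, 19 to 378 and 218 to 4483 for RA at 3, 6, 10 and 16 h, 752 to 3624 for any RA time with 2 to 5 genes studied, 9 to 36, 25 to 97 and 42 to 115 for intravenous RA at 30, 60 and 90 min, and 78 to 141 for any intravenous time. Quantile normalization moved the share of higher calls to 35.2% (7.36% as deposited) for deficient against adequate, 63.5% (83.6%) for supplemented against deficient, 57.9% (22%) and 34.4% (3.63%) for RA at 10 and 16 h, and 71.1% (56.8%) and 78.9% (66.1%) for intravenous RA at 60 and 90 min. Single-gene results were followed over the settings only where the unadjusted p was under 0.05, or where an F test passed or came near. Of these, 558 kept their direction and side of the threshold, 56 lost a call, 30 gained one and 1 reversed. Calls gained elsewhere are not counted, such as those of Cyp1a2 in the diet experiment after quantile normalization. Dim signals near the floor limit Cyp1a1, and the spread within time course groups and the disagreement of its probe sets limit Ahr.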
